A study of Homo sapiens with 4 samples.

Results

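The genes described here are 42 NF-kB factors, NF-kB target genes, cytokines and chemokines, chosen by symbol from a list. Of these 42, 39 had a probe set among the 17687 named genes of the arrays, 23 of them lay above the array background on at least 1 array, and BCL3, TNF and SAA2 were not analysed here. Array background means the value that 95% of the 612 negative control probe sets on the same array did not exceed. It was 7.99 on the Li-7 mimic array, 8.72 on the Li-7 control array, 8.20 on the HEP-G2 mimic array and 8.35 on the HEP-G2 control array. The study transfected a pair of established human lines from liver cancer, Li-7 and HEP-G2, with an oligonucleotide that mimics miR-4730, a microRNA, or with a negative control. The mimic was given at 3 nM, 24 h after seeding. The 4 groups were Li-7 with mimic, Li-7 with negative control, HEP-G2 with mimic and HEP-G2 with negative control. Each group had 1 Affymetrix array and no replicate, so no spread between cultures was measured. Li-7 grew in RPMI-1640 and HEP-G2 in DMEM, both with serum, so line and medium cannot be told apart. A difference below is mimic minus control unless stated, on the deposited scale, which was read as log2.

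NF-kB is a family of dimeric transcription factors that IkB proteins hold back in the cytoplasm. Signals from tumour necrosis factor, interleukin-1 or Toll-like receptors activate IkB kinase, IkB is degraded, and the freed dimers switch on inflammatory genes together with their own inhibitors. In hepatocytes the pathway is known for acute phase and survival responses, and in liver tumours for secreted cytokines that act on neighbouring cells.

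The sequence of the mature microRNA is shown because it is the agent of every comparison. It lies in RefSeq at chr17:80419427-80419449 on the plus strand of GRCh38.p14, and capitals mark the seed, bases 2 to 8.
hsa-miR-4730: cUGGCGGAgcccauuccaugcca

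The upstream sequences of 5 members that recur in the results are shown next, each with a match to the consensus of the site that NF-kB dimers read. ICAM1 also recurs, but its window held no match and is not shown. Each is the 250 bases before the RefSeq start of the gene in GRCh38.p14, and capitals mark matches to the 10-base kB consensus on either strand, with overlapping matches joined. IL32 is at chr16:3065153-3065402 (plus strand), CCL20 at chr2:227813592-227813841 (plus), NFKBIA at chr14:35404750-35404999 (minus), TNFAIP3 at chr6:137867009-137867258 (plus) and TNFRSF9 at chr1:7940840-7941089 (minus).
IL32: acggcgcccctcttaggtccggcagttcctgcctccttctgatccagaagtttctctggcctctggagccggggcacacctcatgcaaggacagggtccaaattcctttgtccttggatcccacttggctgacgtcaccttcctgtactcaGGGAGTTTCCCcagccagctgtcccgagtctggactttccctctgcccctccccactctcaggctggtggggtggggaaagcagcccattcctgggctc
CCL20: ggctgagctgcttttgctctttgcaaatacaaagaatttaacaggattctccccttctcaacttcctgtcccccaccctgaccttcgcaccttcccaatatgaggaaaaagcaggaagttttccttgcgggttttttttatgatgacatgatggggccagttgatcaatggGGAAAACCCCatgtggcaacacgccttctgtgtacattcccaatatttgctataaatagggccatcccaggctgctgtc
NFKBIA: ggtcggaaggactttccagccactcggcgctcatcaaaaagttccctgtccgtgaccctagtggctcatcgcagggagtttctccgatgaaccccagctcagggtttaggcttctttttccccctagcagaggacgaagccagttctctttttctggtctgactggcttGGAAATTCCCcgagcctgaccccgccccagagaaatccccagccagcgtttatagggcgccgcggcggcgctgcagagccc
TNFAIP3: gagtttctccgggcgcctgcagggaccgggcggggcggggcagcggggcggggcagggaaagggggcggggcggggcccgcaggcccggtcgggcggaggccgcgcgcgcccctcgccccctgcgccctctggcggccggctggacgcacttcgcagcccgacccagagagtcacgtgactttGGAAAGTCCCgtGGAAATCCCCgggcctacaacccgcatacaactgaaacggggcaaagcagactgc
TNFRSF9: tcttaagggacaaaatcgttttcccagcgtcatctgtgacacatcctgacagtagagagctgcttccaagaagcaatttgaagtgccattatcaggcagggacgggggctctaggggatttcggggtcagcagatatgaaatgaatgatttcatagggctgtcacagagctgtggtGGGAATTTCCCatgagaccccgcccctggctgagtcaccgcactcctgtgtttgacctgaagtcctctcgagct

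RefSeq has a further start for IL32, and its window at chr16:3065534-3065783 held 0 matches. In the IL32 window shown the match spanned 99 to 89 bases before the start, in CCL20 79 to 70, in NFKBIA 81 to 72 and in TNFRSF9 74 to 64. TNFAIP3 held a pair of matches, at 67 to 58 and at 55 to 46 bases before the start. Of the 42 listed members 33 had an upstream sequence in the RefSeq table, and 21 of these (63.6%) held at least 1 match, against 6.28% of 27305 genes in the same window. ICAM1, RELA, TNFAIP2, TRAF1, IL1RN and CXCL8 held none in these windows, which says only that these letters are absent there. A match is a description of the sequence and not a measured binding site. The members were listed as NF-kB factors and target genes, so their share with a match is not a test. Among the tested members, the 18 with a match had a median mean difference of 0.33 (from -0.61 to 1.64) and the 6 without one 0.38 (from -0.72 to 1.00), so the ranges overlapped.

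With the mimic, more of the members stood higher than lower in both lines, but no member passed the test over all genes. The linear model with line and treatment (limma, Benjamini-Hochberg over 12381 genes) called 0 of the 32 members that could be tested, where it called 0.42% of all genes (0.0808% higher and 0.339% lower). At an unadjusted p under 0.05 there were 16 of 32 (50%), against 19.5% of all genes. Of these 16, 14 were higher with the mimic (43.8%, against 9.75% of all genes) and 2 lower (6.25%, against 9.71%). NFKB1, NFKBIA, TNFAIP3, IER3, IL32 and ICAM1 of the 16 lay above background on all 4 arrays, and RELB and CXCL8 on none. The rest of the 16 had a value under background on at least 1 array. The sign was positive in both lines for 18 of 32 members (56.2%, against 34.1% of all genes) and negative in both for 7 (21.9%, against 31%), and the lines had opposite signs for the other 7 (21.9%, against 34.9%). Many of these signs use values under background, as only 9 members lay above it on all 4 arrays and 9 of the 32 on none. Of those above it on all 4, NFKBIA, NFKBIZ, TNFAIP3, IER3, IL32 and ICAM1 were positive in both lines. NFKB1 and REL were negative in both, and RELA had opposite signs. Over the 32, Li-7 had a median difference of 0.38 and HEP-G2 one of 0.36, beside 0.02 in each line over all genes. With 1 array per group, the only residual of a gene is the disagreement between the lines, with 1 degree of freedom. The limma p values combine it with a variance pooled over all genes tested, which weighs as 5.85 degrees of freedom. They do not measure a spread between cultures. The study's named target HMGA1, a chromatin protein, stood at 10.91 with mimic against 14.93 with control in Li-7, and at 11.61 against 14.79 in HEP-G2 (mean -3.59, SE 0.29, limma adjusted p = 0.0241).

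At a 2-fold limit, 5 of the 32 were higher with the mimic in Li-7 (15.6%, against 3.72% of all genes) and 0 lower (against 4.12%). They were IL32, NFKBIA, TNFRSF9, ICAM1 and CXCL8. In HEP-G2, 7 were higher (21.9%, against 5.77%) and 1 lower (3.12%, against 6.28%). The higher ones were CCL20, CSF1, LIF, IL32, IL18, RELB and IER3, and the lower one was IL1RN. Only IL32 was on both lists of higher members (3.12%, against 1.03% of all genes). CXCL8 lay under background on both Li-7 arrays, and IL18 and RELB on both HEP-G2 arrays. As bounds, CSF1, LIF and IL1RN stayed short of the limit, at 1.94-fold, 1.21-fold and 1.26-fold. In HEP-G2, CCL20, IL32 and IER3 passed the limit with signal on both arrays. These are differences between single arrays, with no test.

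**Figure D1:**
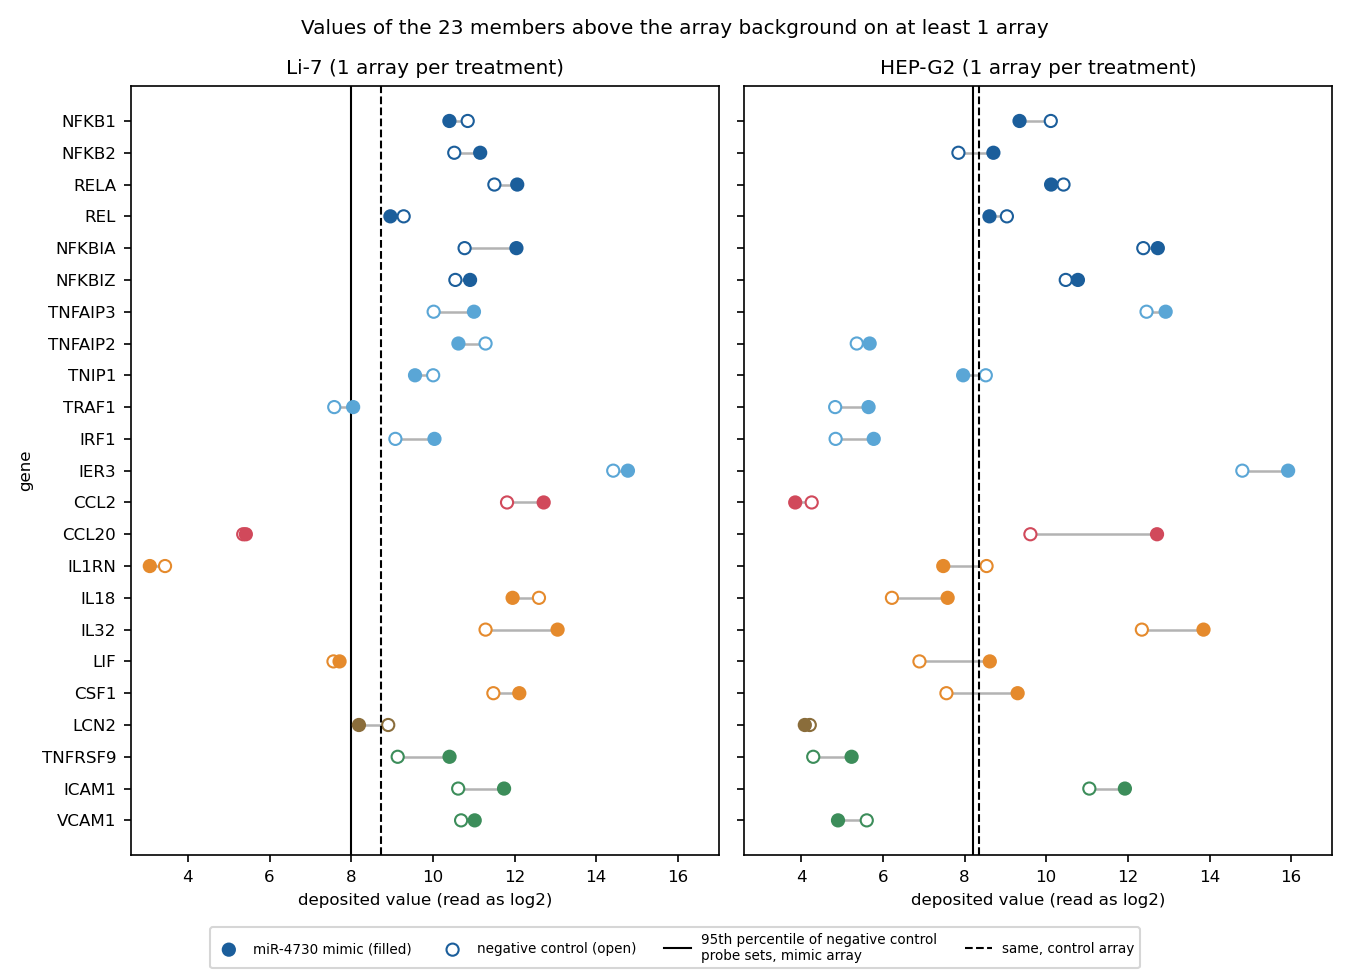
Deposited values (x axis, read as log2) of the 23 members above the array background on at least 1 array, in Li-7 (left) and HEP-G2 (right). Filled points are mimic arrays and open points control arrays, colours follow the members' roles, and vertical lines are the background of the mimic (solid) and control (dashed) array. IL32 lies to the right with the mimic in both panels, and CCL20 stands at 12.71 with the mimic against 9.61 with control in HEP-G2.

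Among the NF-kB subunits, the response was uneven. NFKB1, the precursor of p50, stood at 10.40 with mimic against 10.85 with control in Li-7 and at 9.35 against 10.11 in HEP-G2. NFKB2, the precursor of p52 in the non-canonical branch, had the opposite sign, at 11.16 against 10.52 in Li-7 and 8.71 against 7.85 in HEP-G2. That HEP-G2 control value lay under background, so the mimic value there was at least 1.28-fold higher. RELA, the main activating subunit, stood at 12.07 against 11.51 in Li-7 and 10.12 against 10.42 in HEP-G2. REL was slightly lower with the mimic in both lines, at 8.96 against 9.28 and at 8.61 against 9.04. RELB, the partner of p52, was under background on all 4 arrays, at 7.55 against 6.67 in Li-7 and 5.87 against 4.65 in HEP-G2. NFKB1 and NFKB2 thus had different signs, with mean differences of -0.61 (SE 0.25, limma adjusted p = 0.249) and 0.75 (SE 0.25, limma adjusted p = 0.179).

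NFKBIA and TNFAIP3, inhibitors that NF-kB itself induces, had higher values with the mimic in both lines, and neither passed the test. NFKBIA, the IkB-alpha that retains the dimers in the cytoplasm, stood at 12.05 with mimic against 10.78 with control in Li-7 and at 12.73 against 12.38 in HEP-G2. TNFAIP3, the ubiquitin-editing enzyme A20 that shuts off signalling, stood at 11.01 against 10.02 and at 12.93 against 12.46. Both were above background on every array, and their differences were larger in Li-7 (1.27 and 0.99) than in HEP-G2 (0.36 and 0.47), a comparison that was not tested. Mean differences were 0.81 for NFKBIA (SE 0.30, limma adjusted p = 0.211) and 0.73 for TNFAIP3 (SE 0.26, limma adjusted p = 0.204). NFKBIZ, a nuclear IkB that acts as a cofactor, differed by 0.36 in Li-7 and 0.30 in HEP-G2. TNIP1, an A20-binding brake, went the other way, at 9.56 against 10.01 in Li-7 and 7.97 against 8.52 in HEP-G2, where the mimic value lay under background. NFKBIE, the IkB-epsilon, was under background on all arrays, with differences of 0.39 and 0.77.

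Of the other regulators, IRF1 and IER3 stood higher with the mimic. IRF1, a transcription factor induced by interferon and NF-kB, stood at 10.04 against 9.08 in Li-7 and at 5.78 against 4.84 in HEP-G2, where both values lay under background. The mean difference of 0.95 (SE 0.24, limma adjusted p = 0.124) therefore rests on 1 line with signal. IER3, an early response gene linked to cell survival, was far above background throughout, at 14.78 against 14.42 in Li-7 and 15.93 against 14.80 in HEP-G2. TRAF1, a receptor adaptor, stood at 8.05 against 7.58 in Li-7, just above background with the mimic. That mimic value was under the background of the Li-7 control array, so no fold is given. In HEP-G2, TRAF1 was under background on both arrays, at 5.65 against 4.83. TNFAIP2 was at 10.62 against 11.29 in Li-7 and under background in HEP-G2.

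**Figure D2:**
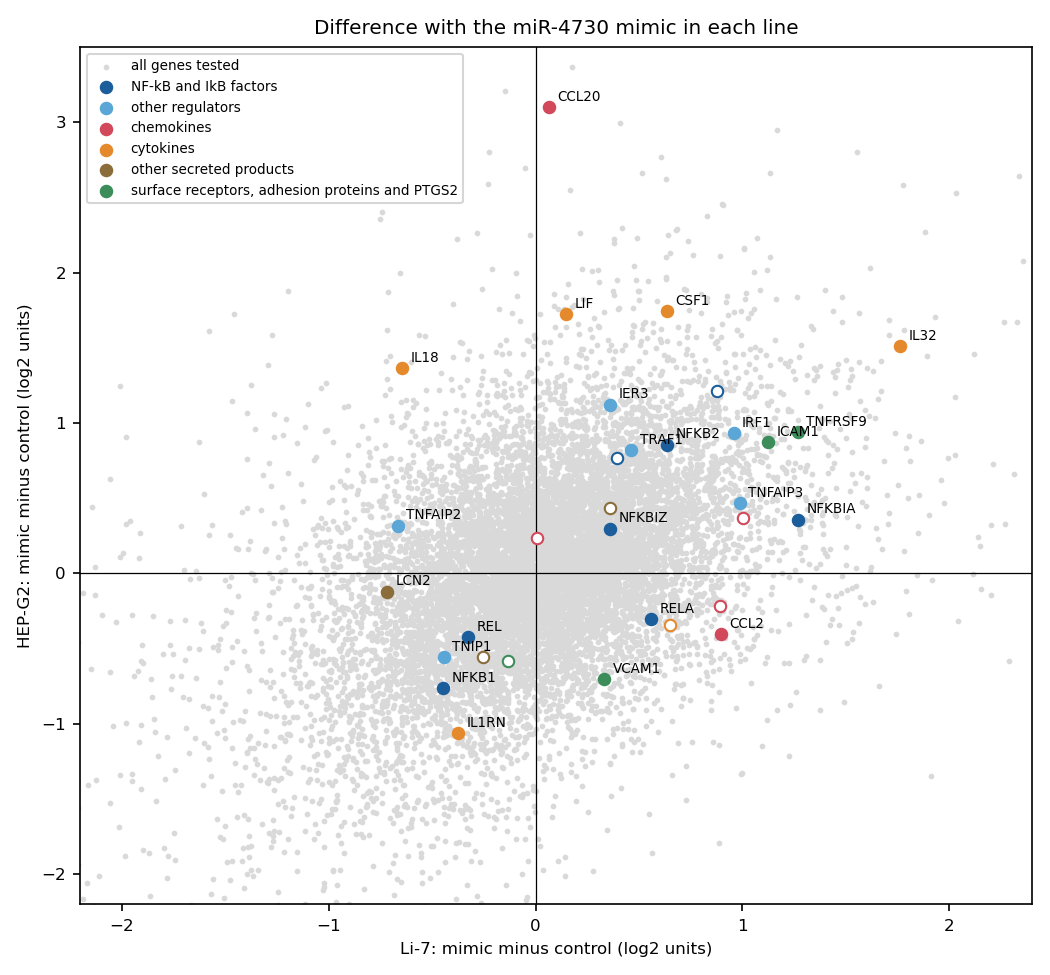
Mimic minus control in Li-7 (x axis) and HEP-G2 (y axis), in log2 units, for all genes tested (grey, axes cut at the frame) and for the 32 tested members (coloured by role). Filled points lie above the array background on at least 1 array and are named, and open points lie under it on all 4. CCL20 stands at 3.10 on the HEP-G2 axis and near 0 on the Li-7 axis, and IL32 at 1.76 and 1.51.

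IL32 was higher with the mimic by a like amount in both lines. IL32, a human cytokine known to induce other inflammatory cytokines, stood at 13.05 with mimic against 11.29 with control in Li-7 and at 13.85 against 12.34 in HEP-G2. All 4 values were far above background, and both mimic values exceeded both control values. The differences of 1.76 and 1.51 are 3.40-fold and 2.85-fold. The mean of 1.64 (SE 0.25) had the lowest adjusted p of the members described, and it did not pass (limma adjusted p = 0.0581). It did pass after quantile normalization (limma adjusted p = 0.0475), after cyclic loess (adjusted p = 0.0111), with an intensity trend in the variance (adjusted p = 0.00977) and with stricter filters on low genes (adjusted p = 0.0215 and 0.0325). It did not pass after median centring (adjusted p = 0.0580), without a filter (0.0552), with probe sets averaged (0.0588), with robust moderation (0.0577), with an ordinary t statistic (0.623) or without line in the model (1.00).

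CCL20, the chemokine that draws CCR6-bearing lymphocytes and dendritic cells, had the largest difference of any member and had it in HEP-G2. It stood at 12.71 with mimic against 9.61 with control there, 8.58-fold higher and rank 6 from the highest among 12381 genes. In Li-7 it was at 5.42 with mimic and 5.35 with control, under background on both arrays. The mean over the lines was 1.58 with a wide SE of 0.63 (limma adjusted p = 0.234), as its responses in the lines lay far apart. CCR6, its receptor, stood at 9.38 against 8.63 in HEP-G2 and under background in Li-7.

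CCL2, which attracts monocytes, was the reverse case. It stood at 12.71 with mimic against 11.82 with control in Li-7, and under background in HEP-G2, at 3.85 against 4.26. CXCL8, the neutrophil chemokine interleukin-8, was at 7.97 against 6.97 in Li-7 and 5.06 against 4.69 in HEP-G2. It missed background only narrowly on the Li-7 mimic array, as PTX3 (7.94) and NFKBIE (7.93) did, while TRAF1 at 8.05 was just inside. CXCL1, CXCL2, CXCL3 and CXCL5, other neutrophil attractants, were under background on all arrays, with values between 3.91 and 5.97. CXCL1, CXCL2 and CXCL3 are close copies of each other, so their probes may be shared.

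CSF1 had higher values with the mimic in both lines, and LIF had signal on the HEP-G2 mimic array alone. Whether the lines differed in this was not tested. CSF1, the growth factor of macrophages, stood at 12.12 with mimic against 11.48 with control in Li-7 and at 9.30 against 7.56 in HEP-G2. The HEP-G2 control value was under background, so the mimic value was at least 1.94-fold higher there. LIF, an IL6-family cytokine, stood at 7.71 against 7.57 in Li-7, under background, and at 8.62 against 6.90 in HEP-G2, at least 1.21-fold higher by the same bound. Mean differences were 1.19 for CSF1 (SE 0.32, limma adjusted p = 0.132) and 0.94 for LIF (SE 0.39, limma adjusted p = 0.249).

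Of the interleukin-1 family, IL18 had signal in Li-7 and IL1RN in HEP-G2, and each was lower with the mimic in that line. IL18, which is made as a precursor and cut by caspase-1, stood at 11.95 with mimic against 12.60 with control in Li-7. In HEP-G2 it was at 7.59 against 6.22, under background on both arrays. IL1RN, the antagonist that blocks the interleukin-1 receptor, was above background only on the HEP-G2 control array, at 7.48 with mimic against 8.54 with control, so the control value was at least 1.26-fold higher. With Li-7 RNA, IL1RN was at 3.07 against 3.44. Its mean difference was -0.72 (SE 0.28, limma adjusted p = 0.227). IL1A and IL1B, the interleukin-1 agonists, were under background everywhere, the highest value being 5.36 for IL1B on the Li-7 mimic array.

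IL6, the inducer of the hepatic acute phase response, was under background on all arrays, at 3.80 with mimic against 3.69 with control in Li-7 and 4.49 against 3.26 in HEP-G2. LTB, SAA1, PTGS2, TLR2 and CD83 were also under it throughout. In all, 16 members had no value above background, and their values ran from 3.07 to 7.97. LCN2, an iron-scavenging protein of the acute phase, stood at 8.19 against 8.91 in Li-7 and at 4.09 against 4.21 in HEP-G2, so it had signal in Li-7 alone.

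Of the surface proteins, ICAM1 had higher values with the mimic in both lines, and TNFRSF9 had signal in Li-7 alone. ICAM1, the adhesion protein that binds leukocyte integrins, stood at 11.74 with mimic against 10.62 with control in Li-7 and at 11.93 against 11.06 in HEP-G2. Both lines had signal on every array, and the mean difference was 1.00 (SE 0.25, limma adjusted p = 0.117). TNFRSF9, the receptor 4-1BB, stood at 10.41 against 9.14 in Li-7 and, under background, at 5.24 against 4.30 in HEP-G2. Its mean difference was 1.10 (SE 0.25, limma adjusted p = 0.101), and it passed after cyclic loess (adjusted p = 0.0401) and with a filter at the median gene (adjusted p = 0.0492). The mean and these passes rest on 1 line with signal. VCAM1, another adhesion protein, stood at 11.02 against 10.69 in Li-7 and under background in HEP-G2, at 4.90 against 5.61.

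Other genes of the pathway were read from lists. The limma test called 0.42% of all genes, so 0 calls in so small a list say little about it. Of 22 tested genes for IkB kinase and its upstream adaptors and kinases, 0 passed in either direction. In both lines 11 were higher (against 34.1% of all genes) and 5 lower (against 31%). The median mean difference was 0.23 beside 0.03 over all genes. BIRC2, a ubiquitin ligase of the tumour necrosis factor receptor complex, stood at 12.12 with mimic against 10.67 with control in Li-7 and at 11.68 against 10.48 in HEP-G2 (limma adjusted p = 0.0766). CARD10 differed by 0.43 in Li-7 and 1.12 in HEP-G2, with both control values under background, so the mimic values were at least 1.10-fold and 1.05-fold higher. IRAK2 differed by 1.14 and 0.20 but had signal on the Li-7 mimic array alone, and that value was under the background of the Li-7 control array, so no fold is given. RNF31, a subunit of the linear ubiquitin ligase, differed by -0.25 and -1.05 and had signal on the HEP-G2 control array alone, so that control value was at least 1.49-fold higher. Among 15 tested receptors that signal to NF-kB, 0 passed (median 0.38). In both lines 9 were higher (against 34.1% of all genes) and 3 lower (against 31%). IL1RAP, the shared interleukin-1 receptor subunit, stood at 10.04 against 8.02 in Li-7, at least 2.50-fold higher from a control under background, and at 10.99 against 9.82 in HEP-G2. Its mean difference of 1.60 (SE 0.29) had a limma adjusted p of 0.0750. TNFRSF12A, the TWEAK receptor, differed by 0.48 and 2.05, TNFRSF10B, a TRAIL receptor, by 0.87 and 1.31, and TLR6 by 0.51 and, under background, 1.27.

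Brakes on NF-kB outside the members had a median near that of all genes. Of 11 tested, 0 passed (against 0.42% of all genes), with a median of 0.04. In both lines 4 were higher (against 34.1% of all genes) and 1 lower (against 31%). Among those above background on at least 1 array, mean differences were -0.57 for USP21, 0.31 for TAX1BP1, 0.26 for ITCH and 0.26 for COMMD1. USP21 had signal in Li-7 alone and COMMD1 on the HEP-G2 mimic array alone. Receptors for the secreted members (7 tested, 0 passed, median 0.36) included IL6ST, the shared signal chain of the IL6 and LIF receptors, at 14.41 with mimic against 13.70 with control in Li-7 and 14.74 against 13.46 in HEP-G2. IL1R2, the interleukin-1 decoy receptor, differed by 1.13 in HEP-G2, and LIFR by 0.54 and 0.17.

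Acute phase genes that IL6 drives had signal mainly in HEP-G2. Of 10 tested, 0 passed the limma test, and the median difference was 0.64 in HEP-G2, where all 10 lay above background. In Li-7 only CFB and STAT3 did, so the count of 8 with a positive sign in both lines (against 34.1% of all genes) and the median mean difference of 0.72 use Li-7 values under background for the others. CFB, complement factor B, stood at 10.52 with mimic against 9.06 with control in Li-7 and at 13.19 against 11.79 in HEP-G2 (mean 1.43, limma adjusted p = 0.0678). C3 and FGB, the fibrinogen beta chain, had signal in HEP-G2 alone, at 15.47 against 14.73 and at 16.68 against 15.97. HAMP, hepcidin, stood at 14.31 against 11.90 in HEP-G2 and at 4.19 against 4.93, under background, in Li-7.

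**Figure D3:**
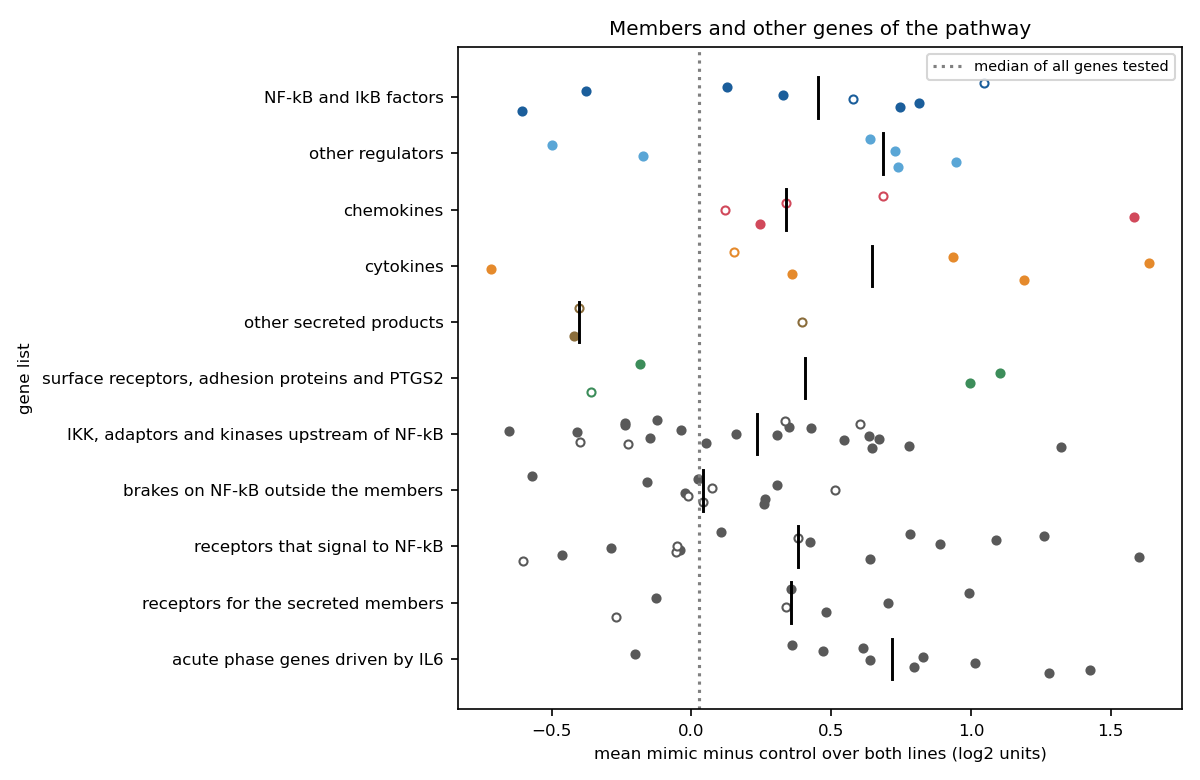
Mean mimic minus control over both lines (x axis, log2 units) for each tested gene of the 6 member groups (coloured) and 5 other lists of the pathway (grey). Filled points lie above the array background on at least 1 array, open points under it on all 4, black bars are list medians and the dotted line is the median of all genes, 0.03. The acute phase list has its bar at 0.72, with Li-7 values under background for all but CFB and STAT3, and the brakes have theirs at 0.04.

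More members differed between the lines than between the treatments. Across both treatments, 23 of the 32 tested members passed the line test (71.9%, against 44.9% of all genes), 17 higher in Li-7 (53.1%, against 24.3%) and 6 higher in HEP-G2 (18.8%, against 20.7%). Of the 23 members above background, 18 passed, 13 higher in Li-7 and 5 in HEP-G2. Those left, REL, NFKBIZ, LIF, ICAM1 and IER3, did not pass. CCL2, IL18, VCAM1, TNFAIP2, TNFRSF9, IRF1, LCN2 and TRAF1 entered the 23 through Li-7 arrays alone. CCL20, IL1RN and LIF entered through HEP-G2 arrays alone. The choice of the 23 thus favours a line difference in that direction, and no share of all genes under the same filter is given. The line test uses the same fit, and an ordinary t statistic called 0 members.

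CCL2, IL18, VCAM1, TNFAIP2, TNFRSF9, IRF1 and LCN2 had signal in Li-7 and none above background in HEP-G2. As bounds, CCL2 was at least 15.9-fold higher in Li-7 (mean values 12.26 in Li-7 and 4.06 in HEP-G2, limma adjusted p = 5.62e-06) and IL18 at least 16.0-fold (12.28 and 6.90, limma adjusted p = 0.000113). VCAM1 was at least 5.98-fold higher, TNFAIP2 at least 6.41-fold, TNFRSF9 at least 2.82-fold, IRF1 at least 2.43-fold and LCN2 at least 1.21-fold. These bounds are averages over both treatments. For LCN2 the control arrays alone gave a bound of 1.47-fold. The mimic arrays gave none, as its Li-7 mimic value was under the background of the HEP-G2 mimic array. CCL20 showed the reverse, at least 6.99-fold higher in HEP-G2 (mean values 5.39 in Li-7 and 11.16 in HEP-G2, limma adjusted p = 0.000373). TNFAIP3 and NFKBIA, which had signal in both lines, were lower in Li-7 than in HEP-G2 by 2.18 and 1.15, and IL32 by 0.93. Among the subunits, NFKB2 was higher in Li-7 by 2.56 (SE 0.25), RELA by 1.51 (SE 0.29) and NFKB1 by 0.90 (SE 0.25, limma adjusted p = 0.0246). The NFKB1 difference did not pass after median centring (0.72, limma adjusted p = 0.0521) or without treatment in the model (adjusted p = 0.123). Without treatment, NFKBIA (adjusted p = 0.120) and IL32 (adjusted p = 0.388) did not pass either. IER3, at -0.77 as reported (limma adjusted p = 0.0642), passed after median centring (adjusted p = 0.0331), after cyclic loess (0.0354), with a filter at the median gene (0.0455) and with an intensity trend (0.0114).

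**Figure D4:**
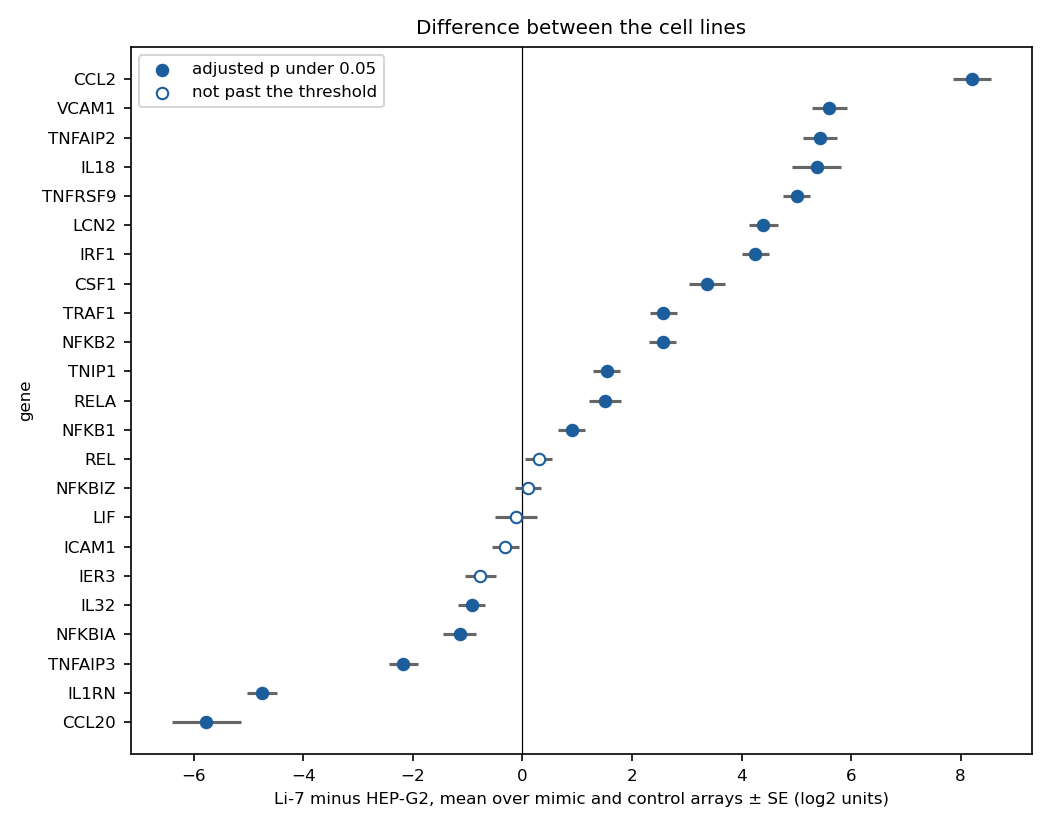
Li-7 minus HEP-G2 averaged over mimic and control arrays (x axis, log2 units, bars are SE of the fit) for the 23 members above the array background on at least 1 array. Filled points passed the limma line test and open points did not. CCL2 is at 8.21 and CCL20 at -5.78.

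Markers of other cell types were read beside these values. Of 13 blood cell markers, 2 (CD68 and LYZ) lay above background, on every array, and the mean level of the list was 5.62 with mimic against 5.77 with control in Li-7 and 6.52 against 6.36 in HEP-G2. Of 12 liver cell markers, 11 lay above background on both HEP-G2 arrays, but 4 did so on the Li-7 mimic array and 2 on the Li-7 control array, where ALB (7.19 with mimic, 7.30 with control) and AFP (3.92 and 4.75) were under it. Among the liver markers above background, the largest mean differences with the mimic were those of SERPINA1 (1.17), TTR (0.63), TF (0.52) and APOH (0.35). In Li-7, TTR and TF were under background on both arrays, and SERPINA1 and APOH on the control array. The Li-7 mimic value of SERPINA1 was also under the background of the Li-7 control array. In HEP-G2, with signal on both arrays, the differences were 0.59 for SERPINA1, 1.21 for TTR, 0.83 for TF and 0.15 for APOH. For the blood markers, the mean differences over both lines were -0.63 for CD68 and -0.61 for LYZ. CD68 was lower with the mimic in each line. LYZ had opposite signs: its HEP-G2 difference was 0.16, while its Li-7 difference was -1.39. Of 10 endothelial and stromal markers 1 lay above background on each array, LUM in Li-7 and ACTA2 in HEP-G2. In the line with signal, LUM stood at 9.26 with mimic against 8.75 with control and ACTA2 at 11.68 against 10.57. Their mean differences over both lines, -0.31 and 0.85, use values under background in the other line. For LUM, those values turn the sign of the mean. The mean level of that list was 5.38 against 5.03 in Li-7 and 5.21 against 5.18 in HEP-G2. No member of the 3 marker lists passed the limma test, which called 0.42% of all genes. The part of these markers in the results was not tested. In RNA of whole cultures, a different share of cells making a transcript and a different amount per cell cannot be told apart.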

How the data were processed

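Biotin-labelled RNA of 4 cultures was measured on Affymetrix arrays of 24351 probe sets. The authors deposited log2-like values that ran from 1.48 to 18.31, which is high for plain log2 intensities, so the scale may be stretched. Per the submitters' processing notes, Affymetrix Expression Console was used, as was Transcriptome Analysis Console. The log base, background correction and normalization were not given in the sources used here.

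Of the probe sets, 17709 carried 1 gene and 0 several, and all 17709 matched the RefSeq table (GRCh38.p14). The brightest stood for each of 17687 genes. Those whose mean reached the 30th percentile (4.90) were kept, which left 12381. They were fitted in R 4.3.3 with limma 3.58.1 (lmFit, eBayes, cell line plus treatment, Benjamini-Hochberg at 0.05), and the procedure was tested on simulated data. Bounds set a dim value to its array's background. The number of arrays limits the precision. Each member above background was described with values, as were up to 4 genes of every other list, those above background with the largest mean difference. ALB, AFP and genes beyond this rule were named after their values were seen. Members, lists and rules were chosen with earlier results of these data known. Alternatives covered normalization, filters, probe set averaging, variance moderation and model terms. A search for microRNA target sites was not made.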

Additional observations from a re-analysis of the deposited data

Results flagged for a closer look

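For 5 of the 23 members above background on at least 1 array, the mimic minus control differences of Li-7 and HEP-G2 had opposite signs. With 1 array per treatment in each line, whether the lines differ was not tested, and 34.9% of all genes tested had opposite signs. CCL2 differed by 0.90 in Li-7 and -0.40 in HEP-G2. For IL18 the values were -0.65 and 1.36, for TNFAIP2 -0.67 and 0.32, and for VCAM1 0.33 and -0.70, in the same order of lines. All 4 of these lay under background on both HEP-G2 arrays. RELA differed by 0.56 in Li-7 but by -0.30 in HEP-G2, and was above background on all arrays.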

How the results depend on the processing

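The reported fit pairs the arrays by cell line, with line and treatment as terms. There were no replicates to pair further or to leave out, since each group had 1 array. The mimic response called 52 genes and 0 members as reported. It called 87 genes and 1 member (IL32) after quantile normalization of named genes, 528 and 2 (IL32 and TNFRSF9) after cyclic loess, 366 and 2 (the same genes) with a filter at the median gene, and 411 and 1 (IL32) with an intensity trend. With only genes above background on any array, an alternative added after seeing the data, it called 200 genes and 1 member (IL32). An ordinary t statistic called 1 gene and 0 members, and a model without line called 0 genes and 0 members. The line difference called 5563 genes and 23 members as reported, against 1 gene and 0 members with an ordinary t statistic. Within the members above background, the mean mimic differences kept their sign in all of these settings. Between the lines, NFKBIZ stood at 0.10 as reported and -0.08 after median centring.

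At a 1.5-fold limit, 13 members were higher and 3 lower in Li-7, and 13 higher and 3 lower in HEP-G2. The share of all genes at this limit is not given, so these counts cannot be set against it. Some of the higher ones were under background on all 4 arrays: RELB, CXCL5, CXCL8 and LTB in Li-7, and RELB and NFKBIE in HEP-G2. Among the other higher ones in HEP-G2, IRF1, TNFRSF9, TRAF1 and IL18 lay under background on both HEP-G2 arrays. So did VCAM1 among the lower ones there. After quantile normalization, HEP-G2 had 0 members lower by 2-fold or more. For the 23 members above background, Li-7 had a median difference of 0.36 and HEP-G2 one of 0.47. It was 0.56 and 0.36 over the 9 members above background on all 4 arrays, and 0.36 and 0.37 over all 39 with a probe set. The causes of these shifts were not tested. Values under background limit the size of a difference for most members on at least 1 array.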
